A study of Rattus norvegicus with 8 samples.

Results

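Adult skeletal muscle genes were followed in rat carotid arteries after balloon injury, namely 36 genes of the sarcomere, of excitation-contraction coupling and of muscle energy supply. They were chosen by symbol, because skeletal muscle markers were higher in the injured than in the control arteries of these same data, so the difference between the groups is described here and not tested. All 36 genes were among the 37209 rows of the count table. Of these, 31 had enough counts for the model fitted to 14359 genes, and 5 (Myh7, Myot, Tcap, Myoz2 and Smpx) did not. Male Sprague-Dawley rats had the left carotid artery injured with an angioplasty balloon catheter under isoflurane. The controls were the uninjured right carotids of the operated animals. After 2 weeks, mRNA was sequenced from 4 injured and 4 control arteries. No transgene or further treatment was named for either group. Every injured artery was a left carotid and every control a right one, so side, surgery and injury cannot be told apart. The labels number the arteries but do not say whether equal numbers mean the same rat.

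In a striated muscle fibre, myosin thick filaments pull on actin thin filaments that are anchored at the Z-disc, and titin and nebulin set the length of both. Depolarization opens the ryanodine receptor of the sarcoplasmic reticulum, the released calcium binds the troponin complex on the thin filament, and a calcium pump then returns it to the store. Fast and slow fibres use different genes for the same part, such as separate myosin heavy chains and troponins, so the mixture of these genes is commonly read as fibre type. The wall of a carotid artery holds smooth muscle, which has no sarcomeres or troponin, while the neck around the artery holds striated muscles.

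The start regions of these genes are shown because many of the genes differed together between the groups. RefSeq promoters of the rat assembly GRCr8 (250 bases before to 50 after the start) matched 30 of the 36 genes by symbol, and Tnnc1, Tnnt3, Mylpf, Myot, Mybph and Tcap were not matched. The build used for the counts is not given in the sources used here, so the coordinates are those of GRCr8. The MEF2 consensus, named after the myocyte enhancer factors, was found in 8 of the 30 genes (26.7%) and in 3.29% of all 33469 promoters. The CArG box, known as a site of serum response factor, was found in 3 of the 30 and in 1.64% of all. The E-box CANNTG, bound by MyoD-type factors among others, was found in 26 of the 30 (86.7%) and in 72.1% of all. Both strands were searched, and matches were counted whether or not they overlapped another motif. A match is a run of letters and not a measured binding site. The windows below read 5′ to 3′ on the strand of the gene, with the motif in capitals. In Myh1 and Myh4, neighbours on chromosome 10, the MEF2 match had the same letters, and Smpx is shown because it held a match and had no counts.
Myh1, MEF2, chr10:52384690-52384719, plus strand: acaactcaaaTTATTTATAGgagattgatt
Myh4, MEF2, chr10:52421942-52421971, plus strand: ccctgtcaaaTTATTTATAGatgacaagaa
Myl1, MEF2, chr9:75897956-75897985, minus strand: cgctggattcCTAAAAATAGccctagggta
Xirp2, MEF2, chr3:72534102-72534131, plus strand: agctcagctcCTAAAAATAGatgctaggtt
Ttn, MEF2, chr3:82332257-82332286, minus strand: ttctaaaaggCTAAATTTAGcactgccaat
Myoz1, MEF2, chr15:3693520-3693549, plus strand: ctcatcgactCTATTAATAAccacccccct
Smpx, MEF2, chrX:41107219-41107248, minus strand: gtatcaaactCTATATTTAGgaagaacaac
Myh4, CArG, chr10:52422020-52422049, plus strand: aaagagattgCCAAAAATGGttttgccaag
Acta1, CArG, chr19:68784269-68784298, minus strand: tgcccaacacCCAAATATGGcttgggaagg
The motif began 212 bases before the annotated start in Myh1 and 176 bases before it in Myl1. In Myh4 the MEF2 match began 196 and the CArG match 118 bases before the start. The distance was 166 bases in Ttn, 101 in Smpx, 94 in Acta1, 83 in Myoz1 and 74 in Xirp2. Matches not shown were the MEF2 match of Myoz2, 53 bases before the start, and the CArG match of Actc1, which lay past the start. The groups overlapped for Myoz2, and Actc1 was lower in the injured arteries.

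Total counts were 11459632 to 16658089 per artery. Levels are given as CPM, that is, counts put on one scale across libraries with TMM factors. The smallest level read as present, 3 counts, was 0.168 to 0.245 CPM, and this floor, like the intervals given below, covers counting error only. Control artery 4 stood apart, since its log2 CPM correlated at 0.830 to 0.852 with those of the other controls across genes, while those correlated at 0.976 to 0.978 among themselves. It correlated at 0.917 with injured artery 3, and it had 27147 counts of the neuronal gene Syt1, against 5347 in injured artery 3. Results are therefore also given without it. Prefrontal cortex is named in the extraction text of the libraries, and the carotid artery in their other labels. From a list of 9 neuronal and glial markers, 4 were tested and 0 were called by the criteria given next. Their summed level was 10.2 to 2487 CPM in the controls and 61.9 to 753.8 CPM in the injured arteries, and the part of such tissue in the muscle gene levels was not tested. Single markers, named after their values were seen, ranged widely. Gad2 and Neurod6 had at most 2 counts and Slc17a7 at most 8. Gad1 had 23, 27, 13 and 3 counts in the controls and 6, 1, 4 and 7 in the injured arteries. Rbfox3 had 34 counts in control artery 4, 31 in injured artery 3 and at most 9 elsewhere. Mbp had 346, 75, 1833 and 2176 counts in the controls and 1826, 711, 2957 and 1643 in the injured arteries. Gfap had 20, 9, 17 and 385 counts in the controls and 825, 121, 3497 and 601 in the injured arteries, with a log2 fold change of 3.33 that was not called (edgeR FDR 0.143). Snap25 had 6177 counts in control artery 4 and 1635 in injured artery 3, and at most 103 elsewhere.

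Most of the muscle genes were higher in the injured arteries. A gene was called when edgeR's quasi-likelihood fit gave a false discovery rate (FDR) under 0.05 and a fold change above 2. Of the 31 tested members, 23 were called higher, where 8.31% of all genes tested were, and 1 (Actc1) was called lower, where 2.57% of all were. Because the members were picked for being higher in this contrast, nothing is read from these shares. The median log2 fold change of injured over control was 3.71 over the 31 members and -0.06 over all genes tested, and 29 of the 31 were above 0. In 24 of the 36 members every injured artery lay above every control artery, which held for 14.2% of all genes tested, and in 1 every injured artery lay below. The 7 members that were tested and not called were Acta1, Mybpc2, Tnnc1, Actn2, Trdn, Ckm and Pygm. Of the tested members, 14 had under 10 counts in every control and thus entered the fit through the injured arteries. Members with under 10 counts in only some controls, such as Mybpc1 and Tnnc1, could also enter through the injured arteries. The median depends on the control level, which is part of the fold itself. The 11 members with at least 10 counts in every control had a median of 1.10, with 5 higher and 1 lower. Of the other 25 members, 20 were tested, with a median of 5.68 and 18 higher. Without control artery 4, 23 members were called higher, 22 of them shared, and the median was 3.88. Without injured artery 4, 21 were called higher, all shared, and the median was 3.08.

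**Figure D1:**
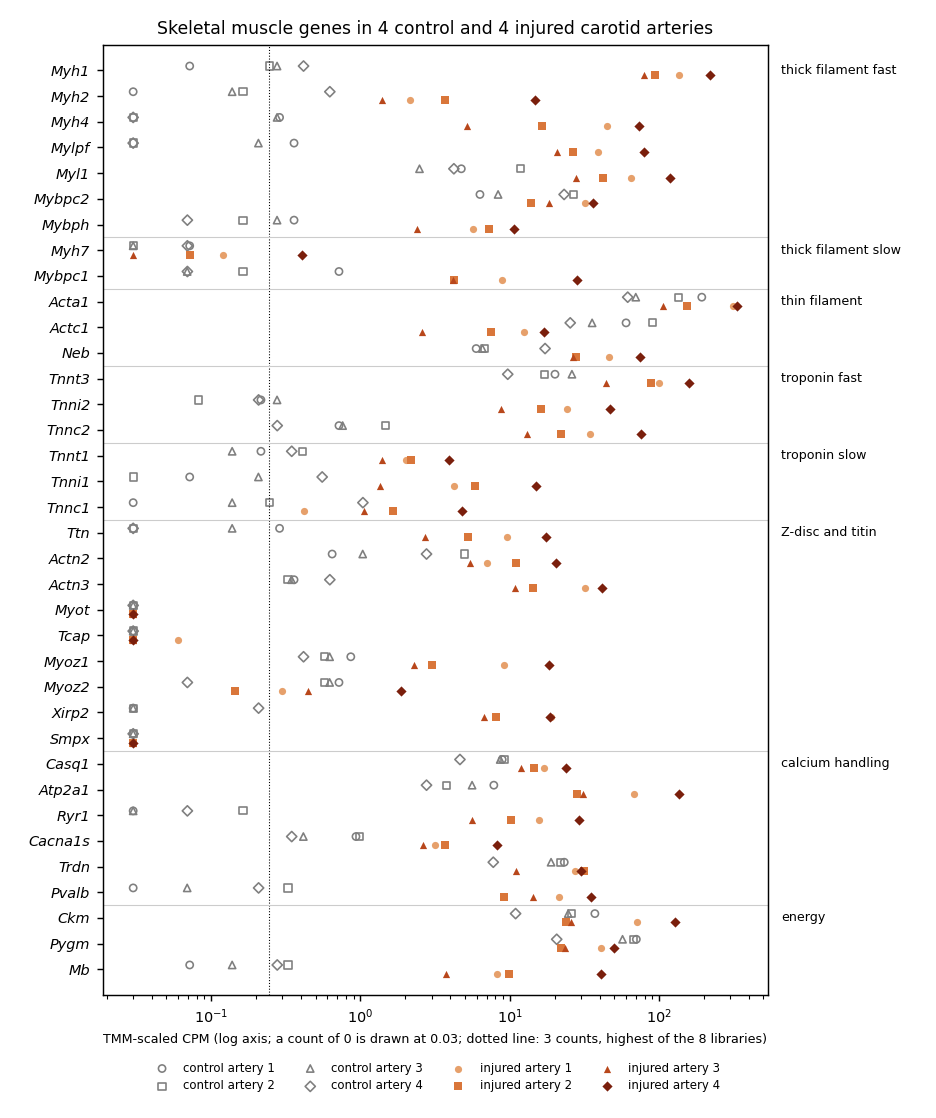
TMM-scaled CPM (log axis) of the 36 genes by role, with open grey symbols for the 4 control arteries and filled symbols for the 4 injured arteries, and counts of 0 drawn at 0.03. In 24 genes the filled symbols all lie to the right of the grey ones, in Actc1 all to the left, and injured artery 4 (diamond) is highest in most rows.

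**Figure D2:**
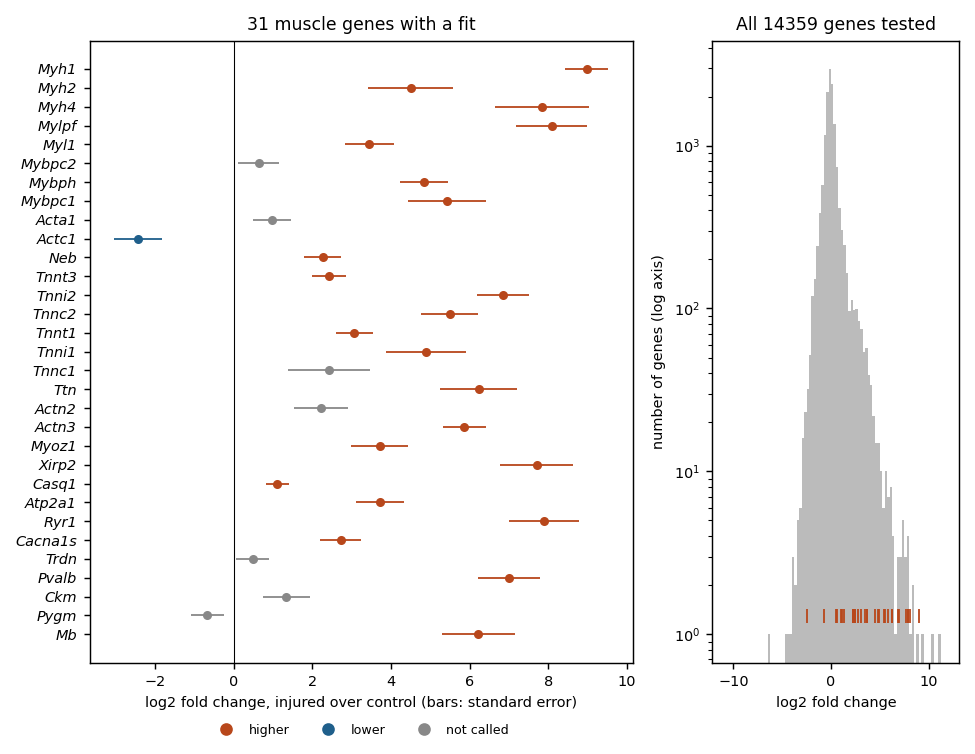
Left, log2 fold change of injured over control for the 31 tested members, with bars for the standard error and colour for the call; right, the number of genes (log axis) at each log2 fold change over all 14359 genes tested, with ticks for the members. The members run from -2.43 (Actc1) to 8.98 (Myh1), and most genes lie near 0.

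The thick filament genes of fast fibres included the members with the greatest differences. Myh1, the heavy chain of fast type 2X fibres, had 1, 3, 4 and 6 counts in control arteries 1 to 4 and 2280, 1309, 1416 and 2684 counts in injured arteries 1 to 4. Its level was at most 0.415 CPM in a control and at least 79.2 CPM in an injured artery. The mean was 0.252 ± 0.141 CPM (SD, n = 4) in the controls and 132.1 ± 62.5 CPM (SD, n = 4) after injury, and the log2 fold change was 8.98 (standard error 0.55). The groups were thus far apart in every artery. Myh4, the heavy chain of the fastest 2B fibres, had 4, 0, 4 and 0 counts in the controls and 754, 227, 92 and 901 counts in the injured arteries. The log2 fold change of Myh4 was 7.84 (standard error 1.19), and 7.19 without injured artery 4. The injured arteries did not overlap with the controls, but injured artery 4 had 73.4 CPM and injured artery 3 only 5.15 CPM. Myh2, the heavy chain of fast oxidative 2A fibres, had 0, 2, 2 and 9 counts in the controls and 36, 51, 25 and 181 counts in the injured arteries. Its level of 14.8 CPM in injured artery 4 stood against 1.40 to 3.69 CPM in the others. The log2 fold change of 4.50 (standard error 1.08) was 3.32 without injured artery 4, and Myh2 was then no longer called. It was not called either without control artery 1, 2 or 3 or without injured artery 2, with values of 4.09 to 4.65, and the value was 5.66 without control artery 4.

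The light chains and binding proteins of the thick filament followed the same groups with one exception. Mylpf, the fast regulatory light chain, had 5, 0, 3 and 0 counts in the controls and 651, 365, 373 and 976 in the injured arteries. For Mylpf the log2 fold change was 8.08 (standard error 0.90), and 8.998 without control artery 1. Myl1, the fast essential light chain, was well above the floor in the controls, at 4.74, 11.8, 2.49 and 4.22 CPM. In the injured arteries it had 64.5, 42.1, 27.7 and 118.7 CPM, and the log2 fold change of 3.45 was 4.04 without control artery 2. The control with the most Myl1 still had less than the injured artery with the least. Mybph, a myosin-binding protein, had 0.0692 to 0.359 CPM in the controls and 2.41 to 10.7 CPM after injury. Mybpc2, the fast isoform of myosin-binding protein C, was the exception. It had 6.31, 26.6, 8.35 and 23.1 CPM in the controls and 31.7, 13.8, 18.4 and 35.9 CPM in the injured arteries, so the groups overlapped, and the log2 fold change was 0.63 (standard error 0.52). Mybpc1, the slow isoform, which fast fibres also hold, had 0.718, 0.163, 0.069 and 0.0692 CPM in the controls. After injury it had 8.94, 4.26, 4.14 and 28.0 CPM, and the log2 fold change was 5.43 (standard error 1.00). This value was 6.73 without control artery 1 and 4.46 without injured artery 4. Myh7, the heavy chain of slow and cardiac muscle, stayed near the floor in both groups, with 1, 0, 0 and 1 counts against 2, 1, 0 and 5. The pooled ratio was 3.63 with a 95% counting interval of 0.724 to 35.1, so a difference was not detectable at this depth.

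The thin filament genes differed in direction. Neb encodes nebulin, the giant protein that runs along the thin filament. It had 5.96, 6.78, 6.56 and 17.2 CPM in the controls and 46.1, 27.9, 26.5 and 74.6 CPM in the injured arteries, a log2 fold change of 2.26 (standard error 0.48). It was no longer called without control artery 2 (2.13) or control artery 3 (2.12). Control artery 4 had the highest level among the controls and still lay below every injured artery. Acta1, the actin of adult skeletal muscle, had 193.4, 135.1, 69.9 and 61.7 CPM in the controls and 312, 153.5, 106.7 and 334.5 CPM in the injured arteries. The groups overlapped, and the log2 fold change of 0.98 (standard error 0.48) was not called. Actc1, the actin of heart and developing muscle, was the one member called lower. It had 60.1, 90.3, 35.6 and 25.4 CPM in the controls and 12.4, 7.44, 2.57 and 16.95 CPM in the injured arteries, so that every injured artery lay below every control. The log2 fold change was -2.43 (standard error 0.61), and the call was lost without control artery 1, 2 or 3 and without injured artery 1 or 2, at values of -2.58 to -2.04.

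Actin genes are near-identical in their coding sequence, and how reads shared between them were counted is not given in the sources used here. Acta2, the smooth muscle actin, is the abundant actin of the arterial wall, at 6554 to 15410 CPM in the controls and 4094 to 5300 CPM after injury. Counts of Acta1 amounted to 0.554% to 1.26% of those of Acta2 in the controls and to 2.61% to 6.87% in the injured arteries. Counts of Actc1 amounted to 0.283% to 0.608% and 0.0629% to 0.348%. The values of Acta1 and Actc1 are uncertain to the extent that reads were split between these genes. Beside the fall of Actc1, the smooth muscle genes Acta2, Myh11, Tagln and Cnn1 had log2 fold changes of -1.34, -1.72, -1.36 and -1.69 (edgeR FDR 0.0193, 0.0222, 0.0348 and 0.0137). Of 10 smooth muscle markers 8 were called lower, with a median of -1.45. Leaving out 1 artery ended the call of Acta2 and Tagln in all fits but that without control artery 4. It ended the call of Myh11 in all but those without control artery 4 or injured artery 1, and that of Cnn1 without injured artery 4. The summed level of the 10 markers was 42680 to 57000 CPM in control arteries 1 to 3, 19750 CPM in control artery 4 and 12000 to 18680 CPM in the injured arteries. In bulk arteries, fewer cells of a type and less RNA per cell cannot be told apart.

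The troponins, which make the thin filament sensitive to calcium, were called higher in 5 of 6 cases. For the fast set, troponin I (Tnni2) had 0.215, 0.0817, 0.276 and 0.208 CPM in the controls and 24.2, 16.1, 8.67 and 46.6 CPM in the injured arteries. This gave a log2 fold change of 6.85 (standard error 0.66). The fast troponin C (Tnnc2) had 0.718, 1.47, 0.759 and 0.277 CPM in the controls and 34.7, 22.1, 13.0 and 75.5 CPM after injury, where the log2 fold change of 5.49 (standard error 0.72) became 4.84 without injured artery 4. The fast troponin T (Tnnt3) was clearly present in the controls, at 20.1, 16.99, 26.1 and 9.69 CPM. After injury it had 100.6, 87.7, 43.9 and 158.9 CPM, and the log2 fold change was 2.42 (standard error 0.43). In none of the fast troponins did the groups overlap. The slow set had lower counts. Troponin T (Tnnt1) had 0.138 to 0.409 CPM in the controls and 1.40 to 3.91 CPM in the injured arteries, a log2 fold change of 3.07 (standard error 0.47). Troponin I (Tnni1) had 0.0718, 0, 0.207 and 0.554 CPM against 4.23, 5.85, 1.34 and 15.0 CPM. Its log2 fold change of 4.89 (standard error 1.01) was 5.95 without control artery 4 and 4.11 without injured artery 4. Tnnc1, the slow and cardiac troponin C, had 0, 0.245, 0.138 and 1.04 CPM in the controls and 0.417, 1.66, 1.06 and 4.81 CPM in the injured arteries. The groups overlapped through control artery 4, and the log2 fold change of 2.42 (standard error 1.05) was not called. Without control artery 4 it was 3.88 and called.

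Within the injured arteries, the myosin heavy chain counts lay almost wholly on fast genes. Myh1, Myh2 and Myh4 took at least 99.87% of the counts of the 4 adult heavy chains, Myh7 having 2 of 3072, 1 of 1588, 0 of 1533 and 5 of 3771 counts. The 0 of 1533 allows a share of up to 0.196%. These are shares of counts and not per length, and since the heavy chain genes are close copies, the split between Myh1, Myh2 and Myh4 is uncertain. Myh1 had 74.2%, 82.4%, 92.4% and 71.2% of the 4 heavy chains in injured arteries 1 to 4. Myh4 had 24.5% (95% exact binomial interval 23.0% to 26.1%), 14.3% (12.6% to 16.1%), 6.001% (4.87% to 7.31%) and 23.9% (22.5% to 25.3%). The Myh4 shares of injured arteries 1 and 4 thus overlapped within counting error, whereas those of arteries 2 and 3 were lower and apart from each other. Myh2 had 1.17%, 3.21%, 1.63% and 4.80%.

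The other gene pairs gave a larger share to the slow or broadly expressed partner than the heavy chains gave to Myh7. The slow genes took 4.02%, 7.14%, 5.48% and 7.78% of the counts of the 6 troponins in injured arteries 1 to 4. By subunit, Tnni1 took 14.9%, 26.6%, 13.4% and 24.3% of the troponin I counts, whereas Tnnt1 took 1.97% to 3.09% of troponin T and Tnnc1 1.19% to 7.57% of troponin C. Actn2, the actinin of all striated fibres, took 18.1%, 43.3%, 33.5% and 32.8% of its pair with Actn3, the actinin of fast fibres. Mybpc1 took 22.0%, 23.6%, 18.4% and 43.8% of its pair with Mybpc2, whose levels overlapped between the groups. As Actn2 and Mybpc1 are not confined to slow fibres, their shares are not shares of slow fibres. Arteries 2 and 4 did not keep one order, since the Mybpc1 share was larger in artery 4 and the Actn2 share larger in artery 2. The 95% intervals of these 2 arteries were apart in both cases. For Myh2, the slow troponins together and Tnni1, which is one of them, the intervals of arteries 2 and 4 overlapped. Of 13 members known as fast-fibre genes, 12 were called higher, all but Mybpc2, with a median log2 fold change of 5.49. Casq1, with a log2 fold change of 1.10, and Mybph, with 4.85, were not among these. Of 5 known as slow-fibre genes (Myh7, Tnnt1, Tnni1, Tnnc1 and Myoz2), 3 were tested and 2 were called higher, with a median of 3.07. Mybpc1, with 5.43, was in neither list, so the medians depend on which genes were listed. As the slow genes had few counts and the members were picked on this contrast, no test of the difference between these lists was made.

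**Figure D3:**
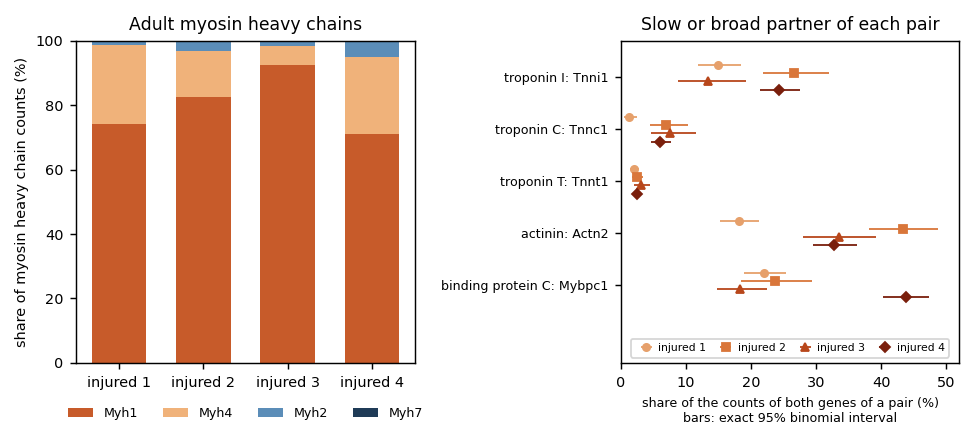
Left, share of the counts of the 4 adult myosin heavy chains on each gene in injured arteries 1 to 4; right, share of each gene pair on the slow or broadly expressed partner, with exact 95% binomial intervals for counting error. Myh1 has 71.2% to 92.4% of the heavy chain counts and Myh7 is too rare to be seen, while Actn2 and Mybpc1 take 18.1% to 43.8% of their pairs.

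Of the 9 Z-disc and titin genes, 5 were tested and 4 of these were called higher. Ttn, which encodes titin, the spring between Z-disc and thick filament, had 0.287, 0, 0.138 and 0 CPM in the controls. It had 9.53, 5.28, 2.69 and 17.5 CPM in the injured arteries, and the log2 fold change of 6.23 (standard error 0.98) was 7.27 without control artery 1. Xirp2, an actin-binding repeat protein of striated muscle, had 0, 0, 0 and 3 counts in the controls and 316, 112, 121 and 229 counts in the injured arteries. The ratio of pooled levels was 235 with a 95% counting interval of 80.2 to 1143, and the 3 control counts all lay in control artery 4. Xirp2 had a log2 fold change of 7.71, and one of 10.57 without control artery 4, which leaves the controls at 0 and depends on the prior count of the fit. Actn3 had 0.327 to 0.623 CPM in the controls and 31.9, 14.4, 10.8 and 41.6 CPM after injury, a log2 fold change of 5.86 (standard error 0.55). Myoz1, a calcineurin-binding Z-disc protein of fast fibres, had 0.415 to 0.861 CPM against 9.18, 3.04, 2.29 and 18.3 CPM, a log2 fold change of 3.71 that was 2.95 without injured artery 4. Actn2 had 0.646, 4.98, 1.04 and 2.77 CPM in the controls and 7.03, 10.98, 5.43 and 20.3 CPM in the injured arteries. The groups did not overlap, yet the log2 fold change of 2.21 (standard error 0.69) was not called, except for instance without control artery 2, where it was 2.87.

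The other Z-disc members had few or no counts. Myoz2, the form of slow and cardiac muscle, had 10, 7, 9 and 1 counts in the controls and 5, 2, 8 and 23 in the injured arteries, and the groups overlapped. Tcap, the titin cap, had 1 count in injured artery 1 and 0 elsewhere. Myot (myotilin) and Smpx (a small muscle protein) were listed at 0 in all 8 arteries, so a level above the floor was not detected. A listed 0 may not mean absence in this table, where 37.0% of the rows were 0 in every artery. Whether the rows of Myot and Smpx could receive reads was not tested.

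The calcium handling genes covered the release channel, its voltage sensor, the store and the pump. Ryr1, the release channel of skeletal muscle, had 0, 2, 0 and 1 counts in the controls and 263, 142, 100 and 355 counts in the injured arteries. The ratio of pooled levels was 260.0 with a 95% counting interval of 88.7 to 1263, and the log2 fold change of 7.89 was 8.89 without control artery 2. Cacna1s, the voltage sensor of the transverse tubule, had 0.933, 0.980, 0.414 and 0.346 CPM in the controls and 3.16, 3.69, 2.63 and 8.23 CPM after injury, a log2 fold change of 2.72 (standard error 0.51). The channel and its sensor were thus both higher in every injured artery. Atp2a1, the calcium pump of fast fibres, had 7.82, 3.76, 5.59 and 2.77 CPM in the controls and 67.8, 28.2, 30.9 and 135.1 CPM in the injured arteries. For Atp2a1 the log2 fold change of 3.71 (standard error 0.61) was 3.08 without injured artery 4. Pvalb (parvalbumin), a soluble calcium buffer of fast fibres, had 0, 0.327, 0.069 and 0.208 CPM against 21.5, 9.11, 14.4 and 35.1 CPM. For Pvalb the log2 fold change was 7.01 (standard error 0.79), and 7.62 without control artery 2. The proteins of the calcium store differed less. Casq1, the calsequestrin of fast fibres, had 8.90, 9.23, 8.63 and 4.64 CPM in the controls and 16.9, 14.6, 11.97 and 24.0 CPM in the injured arteries. The log2 fold change was 1.10 (standard error 0.29), and the call was lost in 7 of the 8 fits that left out 1 artery, all but that without injured artery 3, at values of 0.88 to 1.18. Triadin (Trdn), which ties calsequestrin to the release channel, had 23.2, 21.8, 18.9 and 7.75 CPM against 27.4, 31.2, 11.1 and 30.1 CPM, with overlapping groups and a log2 fold change of 0.48 (standard error 0.41).

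The energy genes were split. Mb (myoglobin), the oxygen store of oxidative fibres, had 0.0718, 0.327, 0.138 and 0.277 CPM in the controls and 8.16, 9.83, 3.75 and 41.0 CPM in the injured arteries. For Mb the log2 fold change of 6.22 (standard error 0.94) was 5.11 without injured artery 4. Ckm, the muscle creatine kinase, had 37.2, 25.8, 24.6 and 10.9 CPM in the controls and 71.1, 23.9, 25.9 and 128.0 CPM in the injured arteries. Injured arteries 2 and 3 lay within the range of the controls, and the log2 fold change of 1.34 (standard error 0.60) was not called. Pygm, the muscle glycogen phosphorylase, had 70.5, 67.7, 56.95 and 20.6 CPM against 40.8, 21.9, 23.3 and 49.6 CPM. It was the one member other than Actc1 with a negative log2 fold change, -0.67 (standard error 0.42), and its groups overlapped.

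The 36 members together took a small part of each library. Their share of all counts was 0.0406%, 0.0388%, 0.0257% and 0.0194% in control arteries 1 to 4 and 0.132%, 0.0752%, 0.0561% and 0.204% in injured arteries 1 to 4. Every injured artery thus had more than every control. The median of the injured arteries was 0.103%, and 0.0786% without Acta1, the member with the most counts. Their summed level ranged from 196.7 to 445.1 CPM in the controls and from 522.3 to 1909 CPM after injury.

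Among the injured arteries, artery 4 was mostly highest and artery 3 mostly lowest, a difference that was not used to choose the members. Of the 32 members with at least 10 counts over the injured arteries, 30 were highest in injured artery 4, the exceptions being Xirp2 (artery 1) and Trdn (artery 2). The lowest level was in injured artery 3 for 25 members, in artery 2 for 6 and in artery 1 for 1. The full order of arteries 4, 1, 2, 3 held in 16 of the 32. Injured artery 4 had more than 2 times the level of injured artery 3 in 31 of the 32 members, and the median ratio was 4.23. Kendall's W, which is 1 when all members rank the arteries alike, was 0.761 over the 4 injured arteries and 0.501 without artery 4. As a ratio to the mean of the injured arteries, the median over members was 1.03, 0.655, 0.447 and 1.87 in arteries 1 to 4. Artery 4 was the smallest injured library, at 11459632 counts, and artery 3 the largest, at 16658089, and the levels compared are scaled for this. The members share each library, so they are not independent of one another. Injured artery 3 was also the one that correlated best with control artery 4.

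**Figure D4:**
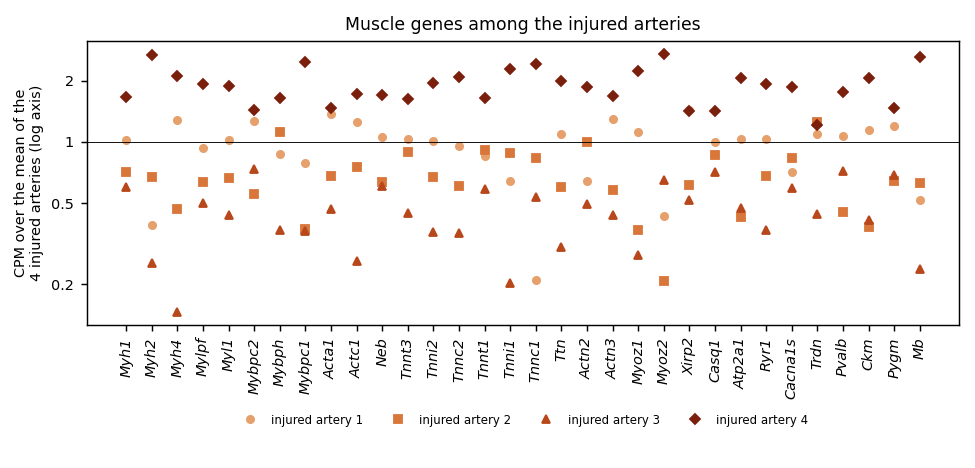
CPM in each injured artery divided by the mean of the 4 injured arteries (log axis), for the 32 members with at least 10 counts over them. Artery 4 (diamonds) is highest in 30 genes, and artery 3 (triangles) is lowest in 25.

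A longer list of other skeletal muscle genes was less uniform. Of 60 genes listed, 57 were in the table and 45 were tested, with a median log2 fold change of 0.29. Of the 45, 17 were called higher, where 8.31% of all genes tested were. Another 5 were called lower, where 2.57% of all were, and 23 neither. With at least 10 counts required in every sample, 28 of the list were tested, with 3 higher and 5 lower. Without control artery 4, 18 were called higher and 8 lower. Unlike the members, the list took a smaller share of all counts in most injured arteries, at 0.129%, 0.126%, 0.109% and 0.146% in injured arteries 1 to 4 and 0.221%, 0.216%, 0.193% and 0.142% in control arteries 1 to 4. The groups overlapped only between control artery 4 and injured artery 4. A few genes held much of this share. In control artery 1, Jph2 had 8139, Pdlim3 6967 and Casq2 4578 of the 33829 counts of the list. The share was not repeated without them. The largest log2 fold changes were those of Trim54, Lmod3 and Cacng1. As each was at 0 in the 4 controls, the fitted values depend on the prior count, and the floor of 3 counts per library gives a lower bound. Trim54, a ubiquitin ligase of the sarcomere, had 47, 13, 12 and 37 counts in the injured arteries, at least 7.58-fold higher (edgeR FDR 0.0137). Lmod3, which nucleates thin filaments, had 21, 11, 13 and 55 counts, at least 7.401-fold higher (edgeR FDR 0.0235), and was not called without injured artery 1 or 2, at log2 fold changes of 7.82 and 7.96. Cacng1, the gamma subunit of the skeletal calcium channel, had 24, 12, 18 and 33 counts, at least 6.11-fold higher (edgeR FDR 0.00771). In all 17 called higher, injured artery 4 had the highest level, and the lowest was in injured artery 3 for 13 and in artery 2 for 4.

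The 5 genes of that list that fell included some used outside skeletal muscle. Cryab, a small heat shock protein, fell by 1.69 on the log2 scale (edgeR FDR 0.00268), from 107.4 to 212.8 CPM in the controls to 38.4 to 52.4 CPM in the injured arteries. Slc2a4, the insulin-responsive glucose transporter of muscle and fat, fell by 1.63 (edgeR FDR 0.0157), and was not called without injured artery 4 (-1.63). The other 3, named after their values were seen, were Pdlim3, Jph2 and Myom1, at -1.22, -1.05 and -1.04 (edgeR FDR 0.0138, 0.0321 and 0.0392). Cox8b, a cytochrome oxidase subunit of muscle and brown fat, had the lowest value, -2.996 (edgeR FDR 0.145), with 0, 44, 12 and 69 counts in the controls and 1, 2, 3 and 10 in the injured arteries, and was not called. Of the slow or atrial counterparts, Myl2 was listed at 0 in every artery and Myl3 had at most 4 counts. Sln (sarcolipin), an inhibitor of the calcium pump, had 0 counts in the controls and 6, 18, 0 and 27 in the injured arteries. Casq2, the calsequestrin of slow and cardiac muscle, which smooth muscle also holds, had 328.5, 327.1, 325.7 and 135.7 CPM in the controls and 145.5, 211.1, 119.3 and 167.5 CPM in the injured arteries. Its log2 fold change of -0.80 (edgeR FDR 0.118) was not called, but without control artery 4 it was -1.03 and called. It took 96.7% to 97.4% of the counts of both calsequestrins in the controls and 87.5% to 93.5% in the injured arteries.

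Of 10 heart muscle markers, 4 were tested, and 0 were called higher and 1 lower. Myh6, the atrial heavy chain, fell by 3.20 on the log2 scale (edgeR FDR 0.00668), with 54, 57, 48 and 29 counts in the controls and 14, 2, 4 and 3 in the injured arteries. Nkx2-5 was listed at 0 in every artery, and Nppa, Nppb and Myl7 had at most 1 count. Tnnt2, the cardiac troponin T, which developing skeletal muscle also uses, had 8, 2, 3 and 36 counts in the controls and 42, 96, 41 and 99 in the injured arteries. Its log2 fold change of 2.50 (edgeR FDR 0.0883) was not called, but without control artery 4 it was 3.91 and called. Myl4, the atrial and embryonic light chain, had 1.83 (edgeR FDR 0.0725) and was called without injured artery 3 (2.11). Ryr2, the cardiac release channel, was present in every artery, at 94.8 to 153.9 CPM in the controls and 76.0 to 120.1 CPM in the injured arteries, with a log2 fold change of -0.19 (edgeR FDR 0.569).

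Genes of developing and regenerating muscle were detected in the injured arteries. Of 11 listed, 9 were in the table under that symbol, 3 were tested and 2 were called higher. Myh3, the embryonic heavy chain, had 5, 0, 2 and 1 counts in the controls and 138, 200, 36 and 411 in the injured arteries, a log2 fold change of 6.57 (standard error 1.10, edgeR FDR 0.00577). The value was 7.49 without control artery 1 and 5.76 without injured artery 4. Myh8, the neonatal heavy chain, had 0 counts in the controls and 98, 164, 29 and 345 in the injured arteries, at least 48.4-fold higher (edgeR FDR 0.0149), and was not called without injured artery 2. Myh3 and Myh8 together took 7.13%, 18.7%, 4.07% and 16.7% of the counts of 6 heavy chains in injured arteries 1 to 4. Their share was thus largest in arteries 2 and 4, whereas the Myh1 share was largest in artery 3.

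The factors that direct muscle differentiation had few counts and were not tested. Myog (myogenin) had 16, 22, 9 and 66 counts in the injured arteries and 0 in the controls, at least 8.59-fold higher. Myod1 had 8, 6, 3 and 16 counts, Myf6 13, 7, 3 and 25, and Myf5 5, 2, 1 and 3, each with 0 in the controls. Tmem8c, an older symbol of the fusion gene Mymk, had 0 counts in the controls and 2 to 10 in the injured arteries. Pax7, the satellite cell gene, had 0, 0, 15 and 6 counts in the injured arteries and 0 in the controls. Chrng, a subunit of the fetal acetylcholine receptor, had 2, 1, 0 and 18 counts in the injured arteries and 0 in the controls. Chrna1, the muscle receptor's alpha subunit, had 47 counts in control artery 4, 0 in the other controls and 8, 9, 45 and 29 in the injured arteries. Its log2 fold change of 0.86 (edgeR FDR 0.718) became 7.45, and called, without control artery 4, which leaves the controls at 0.

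Markers of other tissues near a carotid artery were read in the same way. Of 5 adipocyte markers 0 were called, and their summed level was 80.8 to 685 CPM in the controls and 117.6 to 306.4 CPM in the injured arteries. Of 5 endothelial markers 1 was called higher and 1 lower, at 774.9 to 2108 CPM against 571.5 to 840.5 CPM. Of 8 thyroid and salivary gland markers 2 were tested, with 1 higher and 1 lower, and Muc5b was at 0 throughout. The part of tissue carried along with the artery in the muscle gene levels was not tested.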

How the data were processed

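mRNA was sequenced from 4 injured and 4 control carotid arteries. The authors deposited raw counts of reads per gene symbol for 37209 genes. Per the labels, the submitters' processing notes name HISAT2 2.0.4, while the counter, build and strand setting are not given in the sources used here. The counts were used as deposited. Genes were filtered with filterByExpr of edgeR 4.0.16 (R 4.3.3), which kept 14359, and the quasi-likelihood test with TMM factors and no covariate compared the groups over all of them (Benjamini-Hochberg FDR under 0.05 and fold change above 2). The paper used DESeq with these criteria, and DESeq2 1.42.0 was an alternative. The fits were tested on simulated data. CPM values use the TMM factors. A fold against controls at 0 was set against 3 counts per library. Shares of counts have exact Clopper-Pearson intervals (scipy 1.17.1). The paper names the right carotid as the self-control, so injured and control arteries may come in pairs from the same rats. Labels do not give such pairs, and the main fit treated all arteries as independent. Its p-values therefore measure the spread between these samples and ignore any pairing. The 36 members and all gene lists were chosen with earlier results of these data known. All members were named. From the other skeletal muscle list, the 3 largest and 3 smallest log2 fold changes and Myl2, Myl3, Sln and Casq2 were named. Alternatives covered scaling, filters, a replicate block and leaving out each artery. Results for some genes of the marker lists are not reported here.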

Additional observations from a re-analysis of the deposited data

Results flagged for a closer look

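In groups of 4 arteries, the gap between the highest or lowest artery and its neighbour was compared with the whole range of the group. Of 110 such groups (2 per gene, over the members and the named lists, leaving out groups with at most 3 counts in every artery), 12 had a gap beyond the 95% critical value of Dixon's test. Chance alone gives about 5.5, or 1 in 20. Control artery 4 was the one apart in 5 and injured artery 4 in 4.

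Among the controls, artery 4 was high for Neb (17.2 CPM against 6.78 in the next artery, gap 0.927 of the range) and Actn3 (0.623 against 0.359 CPM, 0.892). It was low for Casq1 (4.64 against 8.63 CPM, 0.869) and Casq2 (135.7 against 325.7 CPM, 0.986). Chrna1 had 3.25 CPM there and 0 in the other controls, which gave 1.0. Control artery 1 was high for Mybpc1 (0.718 against 0.163 CPM, 0.854).

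Among the injured arteries, artery 4 was high for Mb (41.0 against 9.83 CPM, 0.837), Lmod3 (4.48 against 1.25 CPM, 0.86), Chrng (1.47 against 0.119 CPM, 0.919) and Cox8b (0.815 against 0.168 CPM, 0.857). Injured artery 1 was high for Myh6 (0.834 against 0.245 CPM, 0.855), and injured artery 3 for Tnni3 (0.951 against 0.217 CPM, 0.883).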

How the results depend on the processing

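DESeq2, RLE factors, library totals only, scaling without the muscle genes, and no filter gave 22 to 24 members called higher and a median log2 fold change of 3.57 to 3.91. With at least 10 counts in every sample, the median was 1.14 over 11 members, 5 members were called higher, 8 other skeletal muscle genes were called (3 higher and 5 lower) and 1007 genes in all, since this filter removes genes near 0 in the controls. Library totals alone moved the median of all genes from -0.06 to 0.12, and 85.2% rather than 76.4% of the calls were then higher. Over the fits without 1 artery, 1142 to 2398 genes were called against 1562, the highest without control artery 4, with 20 to 23 members higher, 17 to 26 other muscle genes called and a median of 3.08 to 4.04. Whether equal replicate numbers mean the same rat stayed unknown. Arteries 1 to 4 and their counterparts deviated from the means of their groups with correlations of 0.301, 0.45, -0.52 and -0.416. Such correlations cannot settle the pairing, since other differences between arteries, as in control artery 4, also enter them. With the replicate block, 1188 genes and 13 other muscle genes (11 higher and 2 lower, against 22) were called, and of 23 members called higher 21 were shared. The block ended the calls of Tnnt3, Casq1, Actc1, Trim54, Lmod3, Cacng1, Acta2, Myh11 and Tagln. Over all single member fits under an alternative, 416 kept their side of the criteria, 23 lost the call, 6 gained it, and 0 changed sign with a call. In the injured arteries, the median fast share was 99.9% for myosin heavy chains, 93.7% for the 6 troponins and 93.9% without the troponin C genes. In the controls it was 96.9% for the heavy chains, on few counts, and 97.4% and 98.1% for the troponins. The control troponin counts lay mostly on Tnnt3, with 1006 counts over the controls against 43 of Tnnc2 and 11 of Tnni2. By subunit, Tnni1 took 0% to 72.7% of the troponin I counts in the controls, on few counts. The troponin shares of the 2 groups are therefore not compared. The cause of the gap between heavy chains and troponins in the injured arteries was not tested. The count of members highest in injured artery 4 cannot be taken without that artery. Depth limits the statements on Myh7, Myoz2, Tcap and the myogenic factors, and on levels at or below 3 counts.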

Other observations

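Of the thyroid and salivary gland list, Pax8 and Tshr separated the groups in opposite directions, and both are named after their values were seen. Pax8 had 0 counts in the 4 controls and 31, 31, 33 and 20 in the injured arteries, at least 7.71-fold higher (edgeR FDR 0.00139). Injured artery 4, highest for most muscle genes, had the lowest Pax8 level, 1.63 CPM against 1.85 to 2.24 CPM in the others. Tshr fell by 1.56 on the log2 scale (edgeR FDR 0.0139), from 3.44 to 7.35 CPM in the controls to 1.23 to 2.41 CPM in the injured arteries. The thyroid gene Tg had at most 17 counts.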
